A study of Mus musculus with 2 samples.

Results

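The cells described are fibroblasts of the mitral leaflets of E17.5 mouse embryos that were selected on their UMI counts (unique molecular identifiers, the counted RNA molecules) of the genes Dlk1, Smoc2 and Spon2. A cell was a member when it held at least 30 UMIs of the fibrillar collagen genes Col1a1, Col1a2 and Col3a1 per 10000 UMIs, at most 2 UMIs of the endothelial genes Pecam1, Cdh5 and Egfl7, and no UMI of the proliferation genes Mki67 and Top2a. In addition, the summed UMIs of Dlk1, Smoc2 and Spon2 had to reach at least 3 and to exceed each of the other sums of 3 genes by which the leaflet fibroblasts were divided. Those sums were A (Matn4, Col9a1, Col9a3), B (Sfrp2, Angptl7, Tnc), D (Ccn3, Tcf21, Gpc6) and E (Dpep1, Fmo2, Tnxb), and cells led by them are called A-led, B-led, D-led and E-led. The rule took 1501 of 17162 cells that passed the quality filter, 878 in the control and 623 in the mutant library. Levels of the rule's genes below describe the choice and are not findings. Where 2 values stand side by side, the first is the control and the second the mutant.

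Mitral leaflets were cut from 3 to 4 hearts per genotype, pooled, dissociated in 0.05% trypsin and sorted for living cells that excluded the dye 7-AAD, and each pool gave 1 droplet library of RNA 3′ ends. The control group was wild-type, and the mutant group carried Nfatc1-Cre and Dicer loxp/loxp. Nfatc1-Cre places the Cre recombinase under Nfatc1, a transcription factor gene of endocardial and valve endothelial cells, so that the floxed Dicer gene is cut in that lineage and its descendants; cells of other origin in the mutant leaflets keep it unless they have expressed the driver. Each genotype was thus 1 library, which leaves no replicates to test with, and every interval given is a 95% counting interval that leaves out differences between embryos.

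Dlk1 encodes a membrane protein with the repeats of Notch ligands. It is imprinted, expressed from the paternal chromosome, and marks fetal mesenchyme and the precursors of fat cells. Smoc2 and Spon2 encode secreted proteins of the matrix, of the SPARC and spondin families. Leaflet fibroblasts have an endocardial source, the cells that enter the cushions from the endocardium, and an epicardial source, the cells that migrate in from the atrioventricular sulcus. Aldh1a2, which makes retinoic acid, and Wt1 and Tcf21, transcription factors, are known from the epicardial lineage. Dicer cuts hairpin precursors into mature microRNAs, which lower the RNA of targets that pair with their seed, bases 2 to 8.

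The sequences most relevant to these cells are those of microRNAs that Dicer makes. On mouse chromosome 12, the maternally expressed RNAs Meg3, Rian and Mirg follow Dlk1 on the same strand, and the RefSeq table for GRCm38.p6 placed 57 hairpins with 106 mature microRNAs between the start of Meg3 and the end of Mirg. Of these hairpins, 2 lay inside Meg3, 3 inside Rian, 14 inside Mirg and 38 outside these 3 genes. Those outside included miR-431, miR-127 and miR-136, which lay within Rtl1 on the opposite strand. The mature sequences included 9 seeds that were carried by at least 2 hairpins, 4 of which are shown as pairs, 5′ to 3′, with the seed in capitals.
miR-379-5p: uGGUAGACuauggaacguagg
miR-1193-5p: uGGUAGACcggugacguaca
miR-379-3p: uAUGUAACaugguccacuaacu
miR-411-3p: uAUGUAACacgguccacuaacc
miR-376b-5p: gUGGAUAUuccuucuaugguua
miR-376c-5p: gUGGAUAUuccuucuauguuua
miR-410-5p: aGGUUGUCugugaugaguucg
miR-494-5p: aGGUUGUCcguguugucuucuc
Each pair shared its seed. These mature RNAs have no poly(A) tail and were not measured; the libraries counted the polyadenylated Meg3, Rian and Mirg.

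The let-7 family, a widely expressed set of Dicer products, is shown because its known target genes are counted in members below. Of 11 family names in the same table, 10 carried the seed GAGGUAG, and let-7j did not.
let-7a-5p: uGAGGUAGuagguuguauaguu
let-7g-5p: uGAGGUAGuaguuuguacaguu
let-7i-5p: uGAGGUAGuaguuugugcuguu
miR-98-5p: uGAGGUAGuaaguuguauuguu
let-7j: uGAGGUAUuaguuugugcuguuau
Hmga2, which encodes a chromatin protein of growing embryonic cells, is a textbook let-7 target. Its 3′ UTR of 2977 bases in GENCODE M21 held the letters CTACCTCA, the reverse complement of the seed followed by A, 1 time on the transcript's strand, starting at base 21 of the UTR.
Hmga2 site, chr10:120364224-120364251, mm10, minus strand: ggggcgccgacattcaatttCTACCTCA
The capitals mark the 8 matching letters. Among 1896 genes whose longest 3′ UTR measured 2500 to 3500 bases, 98 (5.17%) held them on the transcript's strand. A match of letters is a description of the sequence and was not tested as a site.

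The control library listed 12793 barcodes with 70221728 UMIs, and the mutant library 8250 with 69475632. After the filter 10759 and 6403 cells remained, with medians of 5774 and 9620 UMIs. Members held 5653193 and 6101639 UMIs in all, with medians of 6361.5 and 10005 UMIs and 2421 and 3215 genes per cell and 2.95% and 3.60% of mitochondrial UMIs. The libraries shared 19 barcodes, of which 11 passed the filter in both and none was a member in both. The pools differed in sex: with Xist for female and Ddx3y, Eif2s3y, Kdm5d and Uty for male cells, 814 control members were of the female type and 0 of the male type, against 224 and 281 mutant members, and 64 and 118 were open. A difference between the libraries thus cannot be told apart from one between the sexes, except where female-type cells alone are compared, and in no case from one between the pools.

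Members made up 8.16% (7.65 to 8.69) of the control cells and 9.73% (9.01 to 10.5) of the mutant cells, with exact binomial intervals. Among the 5820 cells that met the collagen, endothelial and proliferation limits the shares were 21.5% (20.3 to 22.8) and 35.8% (33.6 to 38.1). For a comparison at equal depth, cells were thinned to 2000 UMIs and the limits applied anew, leaving out 530 and 422 cells with fewer UMIs. Members then made up 6.89% of 10229 and 9.35% of 5981 cells. Within the limits they made up 15.7% of 4481 and 27.4% of 2037 cells, where 4081 and 1739 had met the limits before thinning. The shares before and after thinning thus have different denominators. Of female-type cells, 8.08% in the control and 8.26% in the mutant were members, while 12% (10.7 to 13.4) of the male-type mutant cells were. Among female-type fibroblasts within the collagen limits the shares were 21.2% (19.9 to 22.5) and 28.2% (25.1 to 31.5), and 44.8% (40.9 to 48.8) for the male type in the mutant. Of all fibroblasts within the limits, without thinning, A-led cells made up 24.7% of control and 15.6% of mutant fibroblasts, B-led cells 16.3% and 10.8%, D-led cells 15.6% and 23.7%, and E-led cells 0.539% and 0.805%. A share of sorted cells can move because other cells were lost or gained, which was not tested.

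Most members were chosen through Dlk1. It held the most UMIs of the 3 genes in 726 control and 552 mutant members, Spon2 in 107 and 57, Smoc2 in 10 and 4, and 35 and 10 were tied. All 3 genes were detected in 325 and 352 members, and Dlk1 alone in 128 and 61. The leading sum had a median of 12 UMIs (range 3 to 71) in the control and 24 (3 to 113) in the mutant, over a next highest sum with medians of 3 and 6. Just inside the threshold, 26 and 13 members held exactly 3 UMIs, and just outside it 18 and 7 fibroblasts were led by the sum with 2 UMIs. In another 59 and 28 fibroblasts the sum reached 3 but was tied, and 65 and 19 members led by 1 UMI. The next highest sum was D, the Tcf21 sum, in 531 and 426 members, B in 111 and 47, E in 82 and 87 and A in 17 and 2.

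The genes that chose the cells were at very different levels elsewhere. Dlk1 measured 1752 CPM in control and 2331 CPM in mutant members (counts per 1000000, from UMIs summed over cells), 133 and 189.9 CPM in D-led, 220.4 and 309 in E-led, 136 and 93 in B-led and 20.1 and 19.5 in A-led cells. Smoc2 measured 171 and 191 CPM in members and 13.8 and 14.1 in D-led cells. Spon2 measured 360.3 and 399.7 CPM in members and 136 and 164 in D-led cells. E-led cells, of which there were 22 and 14, came nearest, with 52.9 and 147 CPM of Smoc2 and 291 and 353 CPM of Spon2. Of endothelial-rule cells, which should lack these genes, 9.35% and 12.4% held a UMI of Dlk1 (4.89% and 4.01% after thinning), at medians of 5330 and 8325 UMIs, against 96.5% and 98.9% of members (85.5% and 88.9% after thinning). Of macrophage-rule cells 3.83% and 14.2% held one (1.68% and 3.97% after thinning), at medians of 4899 and 9926 UMIs, and Dlk1 measured 15.6 and 36.9 CPM there against 32.8 and 28.5 in endothelial-rule cells; the source of these UMIs was not tested.

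**Figure D1:**
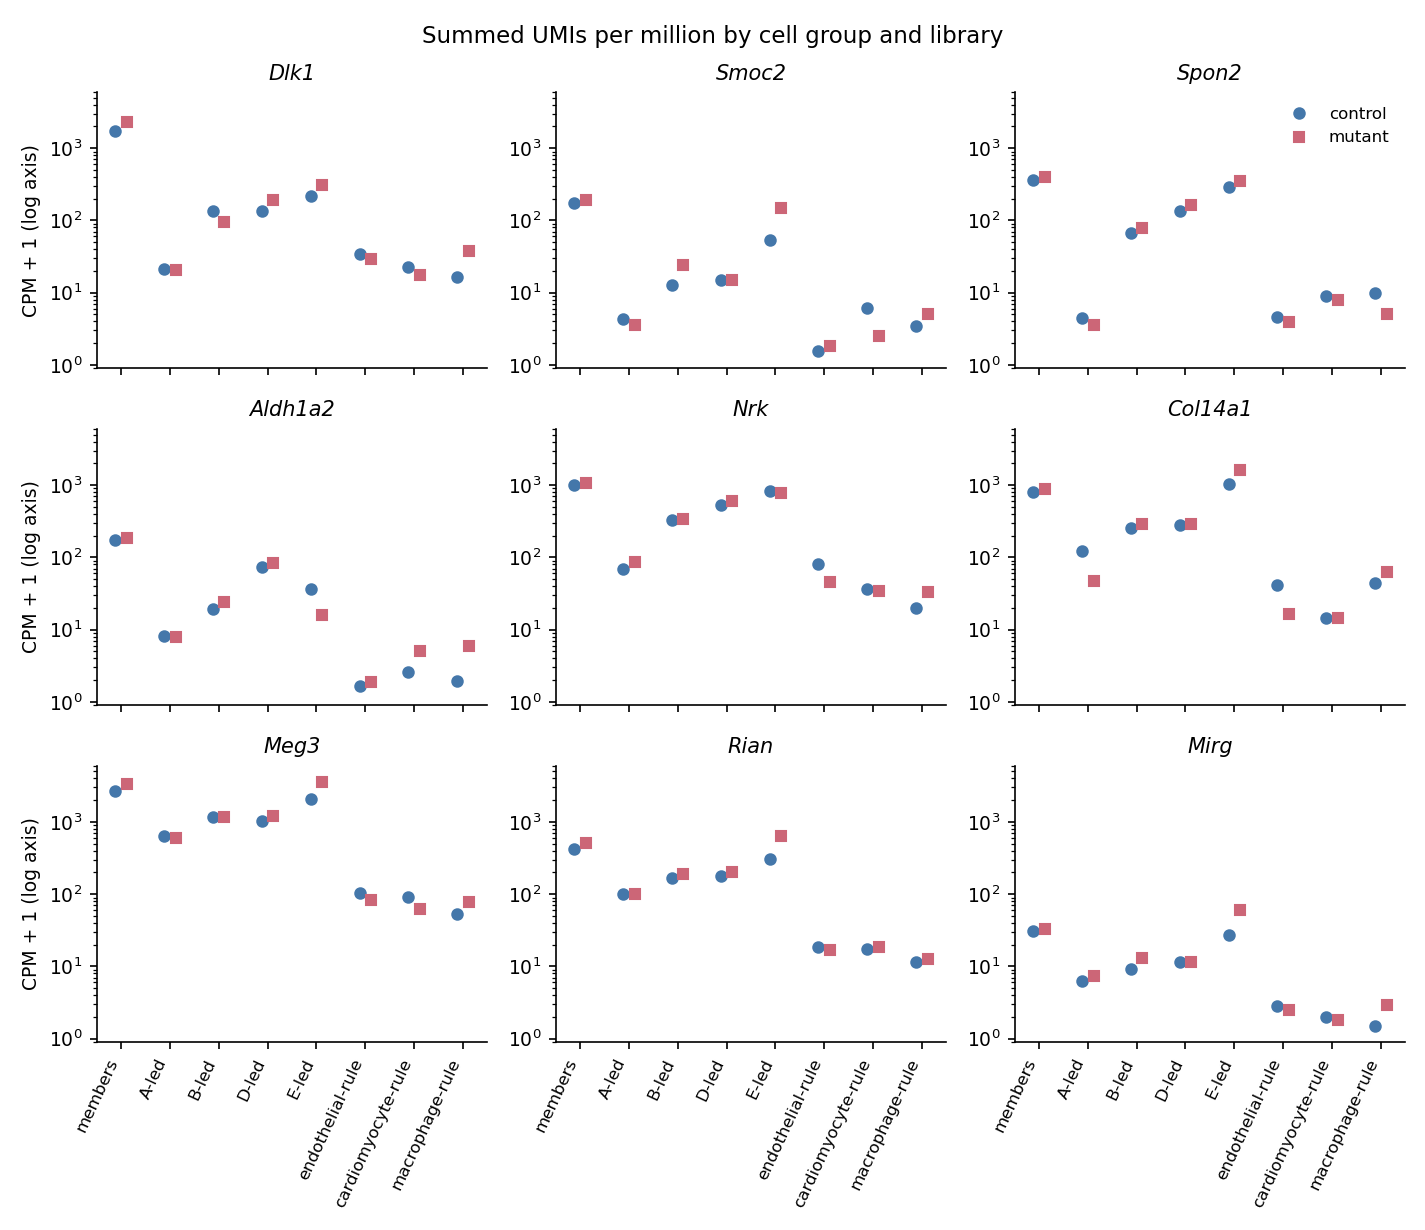
CPM plus 1 (log axis) of the 3 genes that chose the cells, of the markers Aldh1a2, Nrk and Col14a1 and of the imprinted RNAs Meg3, Rian and Mirg in members, A-led, B-led, D-led and E-led fibroblasts and in endothelial-, cardiomyocyte- and macrophage-rule cells, for the control (circles) and the mutant (squares) library. Each point is 1 sum over cells; members were above A-, B- and D-led cells for every gene, and E-led cells, 22 and 14 in number, reached the members' level for Col14a1, Meg3, Rian and Mirg in the mutant.

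Of the markers the rule did not use, Aldh1a2 was higher in members than in every other group. It measured 175 CPM in control and 182 CPM in mutant members, 73.2 and 83.1 CPM in D-led, 18.3 and 22.9 in B-led, 35.3 and 14.7 in E-led, 7.20 and 6.79 in A-led and 0.654 and 0.852 in endothelial-rule cells. A UMI of it was found in 49.8% and 59.6% of members (24.9% and 23.6% after thinning), 31.4% and 42.5% of D-led cells and 0.375% and 0.783% of endothelial-rule cells. Nrk, a kinase gene of embryonic mesenchyme, measured 988 and 1055 CPM in members against 526 and 608 in D-led cells. It was found in 92.0% and 93.4% of members, and in 22.2% and 20.4% of endothelial-rule cells. Col14a1, a collagen that sits on fibril surfaces, measured 797 and 894 CPM against 282 and 292 in D-led and 1032 and 1603 in E-led cells, so that E-led cells exceeded members. Tcf21, one of the D genes, was found in 74.7% and 82.8% of members and 91.5% and 94.2% of D-led cells.

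The name fibroblast held for most members, but not for all. Epicardial genes, which code for the keratins and uroplakins of a covering epithelium, were found in a minority. The summed UMIs of Upk3b, Upk1b, Msln and Krt19 were 0 in 765 control and 581 mutant members, 1 to 2 in 11 and 8, 3 to 11 in 25 and 0, and at least 12 in 77 and 34. Those with at least 3, called epicardial-marker members here, were 102 (11.6%, 9.57 to 13.9) and 34 (5.46%, 3.81 to 7.54). After thinning the shares were 9.36% and 5.37%. In the mutant they made up 6.25% of female-type and 5.34% of male-type members. Of all 142 and 62 cells of the libraries with such a sum, 102 and 34 fell under the rule, and 29 and 26 lay outside the collagen limits. Of these members, 2 and 0 were called doublets. Over the full epicardial list of 6 genes the summed level was 533 and 346 CPM in all members, 3765 and 4159 in epicardial-marker members and 45.3 and 56 in those with neither marker set. The list includes Upk3b, Upk1b, Msln and Krt19, which set these members apart, so this contrast follows from the choice.

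Mural genes, those of the cells around small vessels, were spread more evenly. The summed UMIs of Rgs5, Kcnj8 and Abcc9 were 0 in 608 and 346 members, 1 to 2 in 163 and 149, 3 to 11 in 84 and 88, and at least 12 in 23 and 40. With at least 3 as the limit, 105 (12%, 9.89 to 14.3) control and 128 (20.5%, 17.4 to 23.9) mutant members were mural-marker members. After thinning to equal depth the shares were 4.26% and 8.41%. The remaining 671 (76.4%) and 461 (74.0%) members held neither set and are called plain members. Both limits were set after the data had been seen, and 2 control cells that met both are counted as epicardial-marker members.

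**Figure D2:**
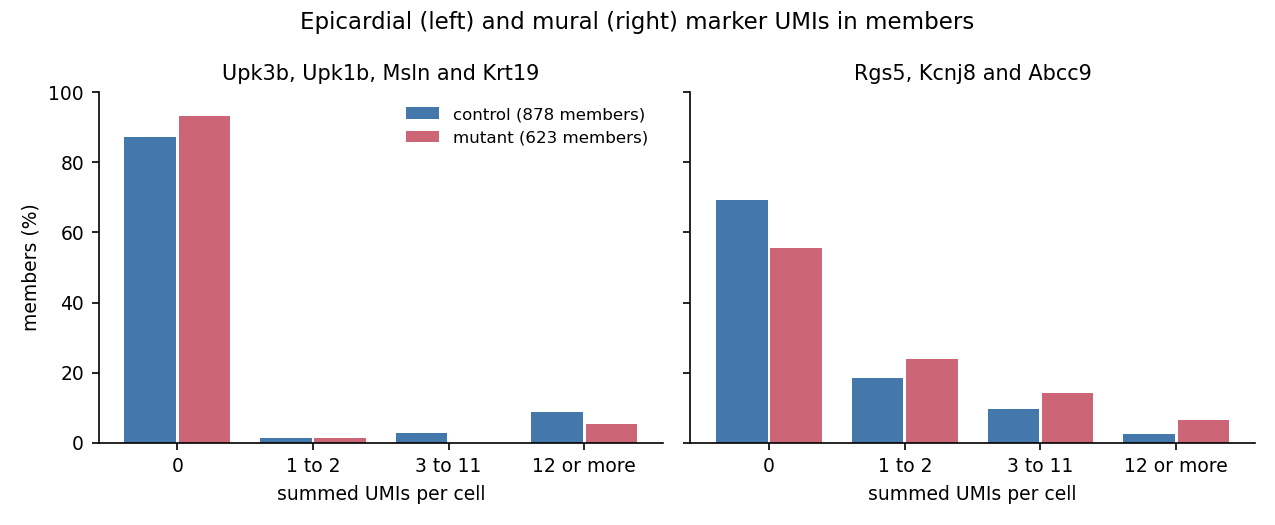
Share of members (%) by the summed UMIs per cell of 4 epicardial genes (left) and 3 mural genes (right), for 878 control and 623 mutant members. The epicardial sums fell apart into 0 in 765 and 581 members and at least 12 in 77 and 34, whereas the mural sums declined step by step from 0 to at least 12.

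Epicardial-marker members differed from plain members in much of their RNA. Of 3709 genes with a mean of at least 50 CPM, 458 (12.3%) were higher by 2-fold or more in both libraries and 301 (8.12%) were lower by as much. The keratin genes Krt7 and Krt8 and the mucin gene Muc16 measured 358 and 412, 141 and 304 and 174 and 184 CPM and were at 0 in plain members, where a count of 0 allows at most 3 UMIs. Bnc1, a transcription factor gene of mesothelium, measured 109 and 139 CPM against 0.237 and 0, and the matrix gene Efemp1 319 and 449.8 against 1.19 and 1.35. Fibroblast genes were low there: Aspn, a small proteoglycan of collagen fibrils, measured 9.39 and 20.2 CPM against 488 and 542, and Col15a1, a collagen of basement membranes, 6.70 and 13.5 against 206 and 291. Dlk1 measured 1809 and 2184 CPM in epicardial-marker and 1719 and 2313 in plain members. Aldh1a2 measured 416 and 439 CPM in the former and 140.3 and 162 in the latter, and Smoc2 347 and 367 and 145 and 189. Nrk (337 and 315 against 1155 and 1216) and Col14a1 (264 and 414 against 934 and 1023) went the other way. By their leading genes these cells are an epicardial set that the rule put together with fibroblasts, and counts without them are given beside several of the gene lists.

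Mural-marker members were close to plain members. Of 3325 genes, 64 (1.92%) exceeded plain members 2-fold or more in both libraries and 27 (0.812%) were as far below. Higd1b, a mitochondrial protein gene known from pericytes, measured 41.8 and 66.8 CPM against 0.712 and 1.13. The receptor genes Mcam and Pdgfrb measured 133 and 138 against 13.1 and 17.4 and 287 and 314 against 42.7 and 48.8. Cox4i2, a respiratory chain subunit found in pericytes, measured 405 and 296 against 42.7 and 49.9. The matrix genes Mfap5 (log2 ratios -1.57 and -2.54) and Ogn (-2.04 and -1.55) were among the lowest. Over the full mural list of 8 genes the summed level was 2327 and 2174 CPM in mural-marker, 281 and 331 in plain members and 1535 and 1722 in D-led cells. The list includes Rgs5, Kcnj8 and Abcc9, so the contrast of mural-marker with plain members follows from the choice.

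Markers of other cell types were low in members apart from cardiomyocyte genes and, in the mutant, granulocyte genes. The summed level was 77.5 and 64.2 CPM for 8 endothelial, 32.4 and 42.4 for 6 macrophage, 11.9 and 47.0 for 6 erythroid, 5.66 and 5.08 for 6 melanocyte and 7.25 and 7.87 for 6 Schwann-cell genes, with Pecam1, Cdh5 and Egfl7 limited by the rule; at 0 were 1 and 2 of the erythroid, 1 and 0 of the melanocyte and 3 and 3 of the Schwann-cell genes. For 8 cardiomyocyte genes it was 851 and 1215 CPM, against 596 and 643 in endothelial-rule cells and 62569 and 66425 in cardiomyocyte-rule cells. For 7 lymphoid and granulocyte genes it was 9.38 and 384 CPM, 4 and 2 of them at 0, and 1 mutant cell carried most of it, as described with the genotype comparison.

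Relative to the other leaflet fibroblasts (A-, B-, D- and E-led cells summed), 71 (2.07%) of 3429 genes stood 2-fold or more above them in members of both libraries and 106 (3.09%) as far below. Without epicardial-marker members, an exclusion added after the data were seen, the counts were 52 (1.52%) and 113 (3.31%) of 3414. The cells were divided by their own expression, so these differences describe the division and carry no test. The genes of the 5 sums and the 3 collagen genes of the limit were left out of the gene groups below. A gene of a group was counted when both libraries had it 1.5-fold or more to one side at a mean of at least 10 CPM, and the pairs of values after its CPM are the log2 ratios of members over the other fibroblasts; over all 8849 such genes 5.04% were higher and 5.76% lower, and 3.8% and 6.7% without epicardial-marker members.

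Without the epicardial-marker members, the highest genes included matrix, adhesion and signalling genes. Clec3b, which encodes the plasminogen-binding protein tetranectin, measured 46.5 and 76.2 CPM against 4.03 and 7.02 in the other fibroblasts, with log2 ratios of 3.52 and 3.43. Col14a1 measured 877 and 932 CPM against 219 and 237 (2.0 and 1.98). Mfap5, a microfibril protein gene, measured 161 and 211 against 36.2 and 60.2 (2.15 and 1.81). Igfbp5, which binds insulin-like growth factors, measured 419.6 and 494 against 135 and 108 (1.63 and 2.20). Akap12, a scaffold for protein kinases, measured 1237 and 1253 against 250.5 and 416 (2.30 and 1.59). Ebf2, a transcription factor gene of mesenchyme and fat precursors, measured 108 and 125 against 22.5 and 37.1 (2.26 and 1.75). Pgf, a growth factor of the VEGF family, had log2 ratios of 1.79 and 1.70, the prolactin receptor gene Prlr of 1.84 and 1.63, and Ggt5, a glutathione-cleaving enzyme, of 2.14 and 2.17. The lowest genes were led by Gal, a neuropeptide gene, with 1.43 and 0.707 CPM against 52.8 and 54.6. Fmod, a proteoglycan of tendon and valve, measured 3.87 and 2.30 against 116 and 73.4. Rspo3, a secreted WNT amplifier, measured 7.95 and 4.07 against 138 and 68.4. Scx, the tendon transcription factor, measured 10.6 and 5.48 against 161 and 113.

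Genes of valve interstitial cells and tendon were lower in members as a group. Of 14 measured, 12 were lower and 1, Thbs2, was higher, with median log2 ratios of -1.88 in the control and -1.43 in the mutant; without epicardial-marker members 12 were lower and none higher. Besides Scx, the group held the transcription factor genes Sox9 (326 and 301 CPM, log2 -0.95 and -0.80), Twist1 (93.2 and 76.9 CPM, -1.82 and -1.57) and Tbx20 (267 and 274 CPM, -1.54 and -1.28). Postn, the periostin gene of fibrous valve matrix, measured 2137 and 2559 CPM with ratios of -1.0 and -0.77. Cthrc1, a secreted collagen-repeat protein, measured 55.5 and 43.1 CPM (-3.30 and -3.17). Nfatc1, the gene that drives the Cre, measured 13.3 and 10.8 CPM in members, against 79.2 and 54.7 in A-led, 90.0 and 96.7 in B-led, 27 and 26.8 in D-led and 60.0 and 39.1 in endothelial-rule cells. Members were thus the lowest of these 5 groups in both libraries.

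Over the A-, B-, D- and E-led cells together, genes of the water-binding and elastic matrix were also mostly on the lower side. Of 9 genes of the hyaluronan and versican network 0 were higher and 5 lower, among them the core proteoglycan gene Vcan (362 and 323 CPM, -1.51 and -1.43), the link protein gene Hapln1 (7.78 and 2.79 CPM, -3.25 and -5.19) and the hyaluronan synthase gene Has2 (12 and 14.6 CPM, -1.90 and -1.69). Of 18 elastic fibre genes 9 were lower and 2 higher, and without epicardial-marker members 7 were lower and 1 higher of 17. Lower were Fbln5 (-2.67 and -2.21), which assembles elastin, the latent TGF-beta binding genes Ltbp1 (-1.97 and -2.35) and Ltbp2 (-3.98 and -3.37) and Mgp (846 and 610.3 CPM, -1.77 and -1.45), a calcification inhibitor; higher were Mfap5 and Efemp1. Efemp1 was high through epicardial-marker members, with 1.19 and 1.35 CPM in plain members.

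Collagens were divided. Of 21 measured outside the rule, 6 were higher and 5 lower. The beaded-filament collagens Col6a1 (986 and 1215 CPM, 1.14 and 1.12) and Col6a2 (749.8 and 972 CPM, 1.28 and 1.29) were higher, with Col5a1 (0.69 and 0.90), Col5a3 (1.78 and 1.95) and Col26a1 (1.80 and 1.47). The cartilage collagens Col2a1 and Col9a2 (37.3 and 32.1 CPM, -1.63 and -1.19) were lower, with Col12a1 (-1.77 and -1.71), Col13a1 and Col18a1 (74.5 and 69.2 CPM, -1.39 and -1.43). Dcn, the decorin gene, measured 3516 and 4246 CPM, with ratios of -0.18 and 0.66 that differed in sign between the libraries.

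Genes of adventitial fibroblasts, the cells of vessel walls and connective sheaths, were higher in part. Of 14 measured, 7 were higher and 0 lower, with medians of 0.89 and 0.98. Besides Clec3b, Mfap5 and Ebf2 these were Entpd2 (20.3 and 35.7 CPM, 3.72 and 3.22), an ectonucleotidase, Cd248 (70.9 and 68.5 CPM, 1.17 and 1.17), a perivascular surface protein, Scara5 (33.1 and 43.8 CPM, 1.75 and 1.39), a ferritin receptor, and Igfbp6. Igfbp6 came from the epicardial-marker members, with 548 and 434 CPM there and 3.32 and 4.06 in plain members, and without them 6 of 13 genes were higher. Pdgfra, the common fibroblast receptor, measured 159 and 201 CPM against 159 and 165. Pi16, also on the list, was hardly detected, with 2.88 and 1.82 CPM in plain members whose next highest sum was D. Col15a1 measured 171 and 247 CPM in members, below the 259 and 336 of D-led cells and above the 80.6 and 241 of B-led cells.

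**Figure D3:**
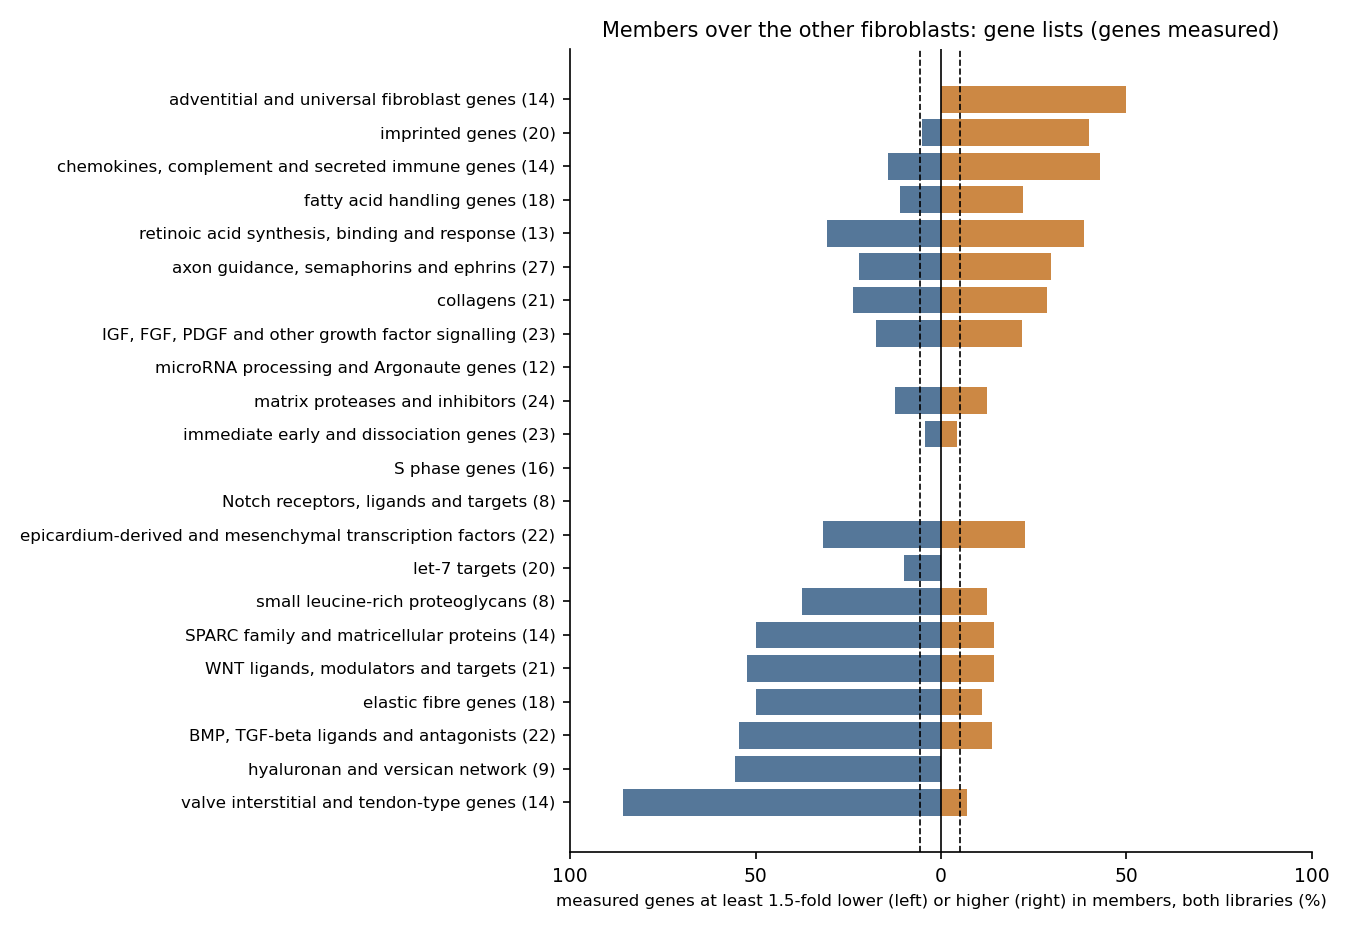
Share (%) of each gene group's measured genes that were at least 1.5-fold higher (right) or lower (left) in members than in the other fibroblasts in both libraries, with the number of genes in brackets and dashed lines at the shares over all genes (5.04% and 5.76%). The valve and tendon group had 12 of 14 genes lower, and the adventitial group 7 of 14 and the imprinted group 8 of 20 genes higher.

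Most counted genes of BMP, TGF-beta and WNT signalling were lower in members, beside a few higher ligands and antagonists. Of 22 BMP and TGF-beta genes 12 were lower and 3 higher, and without epicardial-marker members 14 were lower and 3 higher. The response genes Id1 (148 and 132 CPM, -1.05 and -1.11), Id2 (154 and 143 CPM, -1.14 and -0.88) and Id3 (511 and 489.5 CPM, -1.09 and -0.93) were lower, as were the inhibitory Smad6 (-1.78 and -2.12) and Smad7 (-1.71 and -1.63), which respond to the same signals. Nbl1 (47.4 and 46.1 CPM, 2.55 and 2.04), a secreted BMP antagonist, and Gdf10 (9.73 and 23.8 CPM, 1.79 and 2.08) were higher. Of 21 WNT genes 11 were lower and 3 higher, and without epicardial-marker members 11 were lower and 2 higher of 20. The targets Axin2 (2.65 and 1.97 CPM, -2.52 and -2.84) and Lef1 (3.01 and 0.819 CPM, -3.57 and -4.56) were at low levels and lower, with the antagonist gene Dkk3 (-2.67 and -2.39); the ligand Wnt4 (14.5 and 17.7 CPM, 2.0 and 1.58) was higher. Rspo1 was higher through epicardial-marker members, with 465 and 497 CPM there and 4.27 and 3.84 in plain members. Of 8 Notch genes outside the rule 0 were counted on either side; Notch1 measured 50.2 and 62.3 CPM and the target Hes1 90.0 and 97.8.

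Retinoic acid genes were mixed. Of 13 measured, 5 were higher and 4 lower, and without epicardial-marker members 4 were higher and 4 lower of 12. Higher with Aldh1a2 were Rdh10 (26.4 and 32.5 CPM, 1.30 and 1.57), which makes its substrate retinaldehyde, Dhrs3 (30.2 and 30.6 CPM, 1.10 and 1.43), which turns retinaldehyde back into retinol, and the responsive gene Rarres2 (337 and 387 CPM, 1.57 and 1.42). Tgm2, the tissue transglutaminase, measured 186 and 211 CPM in epicardial-marker and 4.51 and 5.64 in plain members. The lower genes were the related enzyme Aldh1a1 (10.4 and 7.38 CPM, -1.93 and -1.40), the receptor Rarg (12.7 and 9.34 CPM, -1.22 and -0.96), the binding protein Crabp1 and the degrading enzyme Cyp26a1, the last 2 at 1.24 and 0.819 and 2.48 and 0.819 CPM.

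Of 22 lineage transcription factors 5 were higher and 7 lower, and without epicardial-marker members 4 were higher and 8 lower. Wt1 measured 67.9 and 63.4 CPM (2.89 and 2.28), and 261 and 297 CPM in epicardial-marker against 42.2 and 54.4 in plain members. Osr1 (27.6 and 27.7 CPM, 1.91 and 1.09) and the flow-responsive Klf2 (275 and 258 CPM, 1.79 and 0.90) were also higher. Meox1 (117 and 91 CPM, -1.53 and -1.37) and Foxp1 (63 and 57.2 CPM, -0.89 and -1.17) were lower, and the epicardial gene Tbx18 measured 113 and 102 CPM with ratios of 0.18 and -0.41. Of 27 guidance genes 8 were higher and 6 lower. Without epicardial-marker members 5 were higher and 8 lower of 26, with medians of -0.27 and -0.25. The higher ones under both counts included the ligands Sema3d (91.6 and 85.1 CPM, 1.73 and 1.01), Slit2 (172 and 207 CPM, 1.08 and 1.15) and Slit3 (30.4 and 35.7 CPM, 1.85 and 1.93) and the receptor Nrp2 (39.4 and 32.6 CPM, 2.65 and 1.75). Of 14 chemokine and complement genes 6 were higher and 2 lower, and without epicardial-marker members 5 and 2 of 13. The higher ones included Cxcl12 (19.1 and 26.2 CPM, 1.28 and 1.32), a chemokine for blood and endothelial cells, Serping1 (131 and 151 CPM, 0.94 and 0.82), the inhibitor of complement C1, and the cytokine Il33 (26 and 22.6 CPM, 2.79 and 2.48).

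Among imprinted genes, 8 of 20 outside the rule were higher in members and 1, Nnat, was lower, with medians of 0.60 and 0.48. The RNAs of the Dlk1 locus were among them. Dlk1 lies at chr12:109452823-109463336, Meg3 at chr12:109541001-109571726, Rian at chr12:109603940-109661716 and Mirg at chr12:109729764-109749460, all on the plus strand of mm10. Meg3 measured 2661 CPM in control and 3392 CPM in mutant members, 1176 and 1169 CPM in B-led, 1040.4 and 1195 in D-led, 639 and 602 in A-led and 104 and 81.3 in endothelial-rule cells. Rian measured 425 and 517 CPM in members and 175 and 200.2 in D-led cells, and Mirg 30.4 and 32.3 and 10.4 and 10.7. Of the fibroblast groups, E-led cells were at a like level, with 2045 and 3545 CPM of Meg3 and 309 and 632 of Rian. The antisense gene Rtl1 was at the edge of detection, with 23 and 19 UMIs over all members. Other higher imprinted genes were Cdkn1c (1331 and 1144 CPM, 2.12 and 1.34), a brake on the cell cycle, Plagl1 (157 and 169 CPM, 1.55 and 1.23), a transcription factor gene, and Mest (756 and 863 CPM, 1.72 and 1.33). Igf2 (998 and 830.3 CPM, 0.32 and 0.38) and H19 (2001 and 1804 CPM, 0.41 and 0.33) differed by less than 1.5-fold in both libraries.

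Of the groups compared one by one, D-led cells gave the lowest share of genes lower in members. The shares of higher genes over D-led and E-led cells were close. Over D-led cells, 46 (1.39%) of 3303 genes were 2-fold or more higher in members and 33 (0.999%) lower, against 91 (2.62%) and 133 (3.83%) of 3475 over B-led and 45 (1.23%) and 125 (3.41%) of 3662 over E-led cells. The counts over E-led cells rest on 22 and 14 cells, and those of the control held 10148 CPM of the 8 cardiomyocyte genes. The 6 markers, 3 of which chose the cells, summed to 2469 and 3206 CPM in E-led and 1164 and 1351 in D-led cells. In members they summed to 4242 and 5052 CPM. The sum was higher in E-led than in D-led cells, but it includes Dlk1, Smoc2 and Spon2 of the rule and so does not rank likeness. Outside the rule, Nrk measured 838 and 780 CPM in E-led cells against 526 and 608 in D-led cells. Col14a1 in E-led cells, at 1032 and 1603 CPM, exceeded members. Aldh1a2 was nearer to the members' level in D-led than in E-led cells. The contractile gene Acta2, smooth muscle actin, measured 153 and 182 CPM against 924 and 904 in D-led cells (log2 -2.59 and -2.31). Hmga2 measured 37.1 and 41.8 CPM against 119 and 147 (-1.68 and -1.82), and Ccn2, a target of TGF-beta and of stretch, 17.3 and 15.7 against 59.4 and 49.9 (-1.77 and -1.66). Over D-led cells alone, at the 1.5-fold limit where 4.46% of 8661 genes were higher and 2.96% lower, 8 of 20 imprinted, 7 of 14 adventitial and 5 of 10 retinoic acid genes were higher, and 0, 2 and 0 lower. Of the valve and tendon genes 6 of 13 were lower and 2 higher, and of 15 WNT genes 4 were higher (Wnt4, Wnt5a, Wnt5b and Rspo1) and 0 lower, where 11 of 21 had been lower over all other fibroblasts. Of 18 elastic fibre genes 4 were higher (Mfap5, Lox, Fbln5 and Efemp1) and 2 lower. Of 7 hyaluronan and versican genes 0 were higher and 2 lower. Fbln5, Fmod and Igf1 were lower over all other fibroblasts but higher over D-led cells.

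Plain members also differed by the sum that came next. With B next (65 control and 35 mutant cells) rather than D (422 and 313), Eln, the elastin gene, measured 340.4 and 920.5 CPM against 133 and 146, with log2 ratios of 1.36 and 2.66. Igfbp5 measured 60.7 and 87 against 429 and 492 (-2.79 and -2.47) and Aldh1a2 66 and 56.9 against 159 and 183 (-1.24 and -1.65). With E next (71 and 69 cells), the collagen crosslinking enzyme Lox had ratios over cells with D next of 1.55 and 1.19 and the adhesion gene Alcam of 1.33 and 1.45. With B next, Lox (0.73 and 1.60) and Alcam (1.39 and 1.87) were higher as well. Likewise, with E next Eln was higher (0.82 and 0.95), and Igfbp5 (-0.94 and -0.71) and Aldh1a2 (-0.67 and -0.70) were lower. These genes thus did not set the B and E sets apart in direction. Members next to the B genes were thus higher in elastin and lower in Igfbp5 and Aldh1a2 than those next to the Tcf21 sum, in both libraries.

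The mutant's deletion was looked for in Dicer1 itself. Dicer1 (chr12:104687742-104751952, minus strand, mm10) measured 53.2 CPM in control and 48.2 CPM in mutant members, 301 and 294 UMIs, a log2 ratio of -0.14 (-0.38 to 0.09). In A-led cells it measured 69.6 and 48.8 CPM, -0.51 (-0.83 to -0.21), in B-led cells 76.8 and 52.6, -0.54 (-0.89 to -0.21), in D-led cells 57.3 and 52.7, -0.12 (-0.38 to 0.14), and in endothelial-rule cells 80.5 and 57.8, -0.48 (-0.59 to -0.37). The intervals of A-led, B-led and endothelial-rule cells lay below 0 and those of members and D-led cells included it. These are counting intervals, and whether the groups' ratios differed was not tested. Reads of the 3′ end do not show whether the floxed exon was present, so the count does not check the deletion in any cell.

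No let-7 target gene measured differed 1.5-fold between control and mutant members. Of 21 such genes, 0 were past this limit upwards and 0 downwards, with a median log2 ratio of -0.05, where 1.12% of all 8385 genes were higher and 1.2% lower. Hmga2, whose site is printed above, measured 37.1 CPM in control and 41.8 CPM in mutant members, 0.17 (-0.10 to 0.44). In A-led cells it measured 14 and 38.6 CPM, 1.46 (1.01 to 1.92), in B-led cells 47.4 and 106, 1.16 (0.87 to 1.46), in D-led cells 119 and 147, 0.31 (0.14 to 0.47), and in endothelial-rule cells 45.3 and 74.8, 0.72 (0.60 to 0.84). Of these 5 groups, members were the one whose interval included 0. Outside them, it also included 0 in E-led (-3.73 to 2.54) and macrophage-rule cells (-1.12 to 1.26). In cardiomyocyte-rule cells it lay below 0 (-1.19 to -0.18). Thbs1, a matricellular protein gene, gave 0.08 (-0.12 to 0.29) in members, 1.01 (0.90 to 1.12) in A-led, 0.75 (0.63 to 0.87) in B-led and 0.71 (0.52 to 0.91) in D-led cells. Arid3a, a DNA-binding protein gene, gave 0.05 (-0.41 to 0.52) in members, 1.35 (0.74 to 1.98) in A-led, -0.24 (-1.33 to 0.69) in B-led and 0.37 (-0.17 to 0.92) in D-led cells. Over the list, 5 of 22 were higher and 1 lower in A-led cells (5.15% and 3.32% of all genes), 2 and 1 of 20 in B-led (4.31% and 3.14%), 1 and 0 of 21 in D-led (1.35% and 1.03%) and 2 and 1 of 24 in endothelial-rule cells (1.11% and 2.28%). Of 12 microRNA-processing genes 0 were higher and 0 lower in mutant members.

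**Figure D4:**
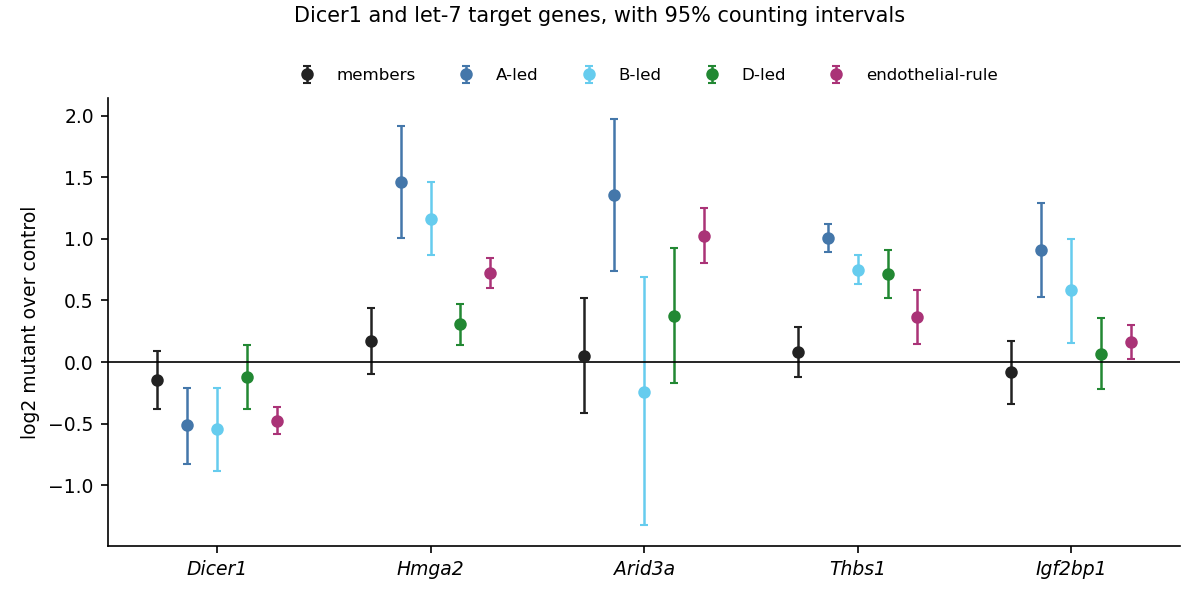
Log2 ratio of mutant over control for Dicer1 and 4 let-7 target genes in members, A-led, B-led, D-led and endothelial-rule cells, with bars for 95% counting intervals of 1 library per genotype. For Hmga2 the members' interval included 0 and those of the other 4 groups lay above it; for Dicer1 those of members and D-led cells included 0.

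Few genes passed the 2-fold limit between control and mutant members. Of 3126 genes with a mean of at least 50 CPM, 2 were 2-fold or more above the control in the mutant and 2 as far below it (0.064% each, 0.128% in all), against 30 (0.901%) of 3328 in A-led, 19 (0.583%) of 3261 in B-led and 12 (0.385%) of 3115 in D-led cells. Cell numbers and depths differed between these groups, and the difference between the shares was not tested. The higher genes were the granulocyte genes S100a8 (2.65 CPM in control and 160.0 CPM in mutant members) and S100a9 (4.95 and 222 CPM), and 1 mutant cell held 955 of 976 UMIs of S100a8 and 1316 of 1355 of S100a9. That cell had 18676 UMIs, an epicardial sum of 46 and was of the male type. The lower genes were Igfbp6 (75 and 35.1 CPM, -1.09, -1.34 to -0.86) and Xist (833 and 416 CPM, -1.0, -1.07 to -0.93), the RNA that silences an X chromosome in females. Without the 3 control and 5 mutant members that held at least 20 UMIs of S100a8 and S100a9 or of the cardiac genes Ttn and Myh7, 0 were higher and 3 lower, Hpgd, Igfbp6 and Xist.

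The low Igfbp6 followed the epicardial-marker members. It measured 548 and 434 CPM in epicardial-marker and 3.32 and 4.06 in plain members, and without the epicardial-marker members its ratio was 0.27. Upk3b (178 and 97.4 CPM, -0.87, -1.02 to -0.72), Krt19 (113 and 62.6 CPM, -0.85), Gpm6a (-0.92), Msln (-0.51) and Rspo1 (64.6 and 39 CPM, -0.73) gave log2 ratios below 0 as well, and epicardial-marker members were 11.6% of control and 5.46% of mutant members. Fewer such cells and less RNA in each cannot be told apart for the summed members. Within epicardial-marker members, Upk3b measured 1346 and 1322 CPM. Ecrg4, a secreted peptide gene, measured 74.1 and 37.9 CPM (-0.97, -1.21 to -0.73) in all and 20.6 and 24.8 in plain members.

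Among female-type members alone, 8 genes exceeded the control 2-fold or more in the mutant and 1 fell below by as much (0.286% of 3152). All 8, among them Ttn, Myh7 and Actc1, are genes of heart muscle, and 458 of 656 Ttn UMIs of mutant members lay in 3 cells. Without the members that held at least 20 UMIs of the named granulocyte or cardiac genes the counts were 0 and 1, the latter Celf4. With male-type mutant cells set against female-type control cells, 9 genes (0.287% of 3133) passed the limit. The 6 higher ones were Ddx3y, S100a8, S100a9, Ngp, Stfa1 and Cstdc5, all but Ddx3y with most of their UMIs in 1 mutant cell. Lower were Apoe, Myl7 and Xist. Ddx3y and Xist are among the genes that set the sex types. Without the members rich in granulocyte or cardiac RNA the counts were 1 higher, Ddx3y, and 5 lower.

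Below the 2-fold limit the highest genes included several of the fibroblast matrix. Clec3b measured 40.5 CPM in control and 71 CPM in mutant members, with a log2 ratio of 0.81 (0.57 to 1.05). Htra3, a secreted protease gene, measured 66.7 and 107 CPM (0.69, 0.50 to 0.87), Fndc1 72.9 and 112 (0.62, 0.45 to 0.81) and Thbs3 43.5 and 65.6 (0.59, 0.36 to 0.83). Tnxb, one of the E genes, measured 98.9 and 156 CPM (0.65, 0.50 to 0.81). Lpl, lipoprotein lipase, measured 114 and 172 CPM (0.58, 0.44 to 0.73), with ratios of 1.62 in A-led, 0.86 in B-led and 0.58 in D-led cells. Its ratios outside the fibroblasts were 0.69 in endothelial-, 0.54 in cardiomyocyte- and 0.49 in macrophage-rule cells, so the rise was not particular to members. Col15a1 measured 171 and 247 CPM (0.52, 0.41 to 0.64), with ratios of 0.15 in A-led, 1.58 in B-led, 0.38 in D-led and 0.63 in endothelial-rule cells. The mural genes Abcc9 (68.1 and 105 CPM, 0.63, 0.45 to 0.82) and Notch3 (45.3 and 67.9 CPM, 0.58, 0.36 to 0.81) were among the highest too. Mural-marker members made up 12% of control and 20.5% of mutant members, and Abcc9 gave 0.19 in plain members. Abcc9 is among the genes that set the mural cut, so its UMIs in each plain member were limited by that cut. The 0.19 thus cannot tell more mural-marker members from more Abcc9 per cell, which was not tested. Alcam gave 0.61 (0.39 to 0.83) in all members, 0.03 when only female-type members of both libraries were used and 0.91 with male-type mutant members over the control's female-type ones. Cdc42ep3, a regulator of the actin skeleton, was among the lowest, with 120.1 and 80.8 CPM (-0.57, -0.74 to -0.40) in all members and a ratio of -0.71 in plain members. Of 17 adventitial genes 4 passed 1.5-fold upwards and 1 downwards, with a median of 0.40, beside 1.12% higher and 1.2% lower of all 8385 genes. Unlike the count over other fibroblasts, the 17 included the rule's E genes Dpep1, Fmo2 and Tnxb, whose levels describe the choice. Tnxb was among those that passed upwards, and Dpep1 gave 0.76 without epicardial-marker members. The imprinted list had 0 higher and 1 lower, the retinoic acid list 0 and 0, and the S phase list 0 and 0.

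**Figure D5:**
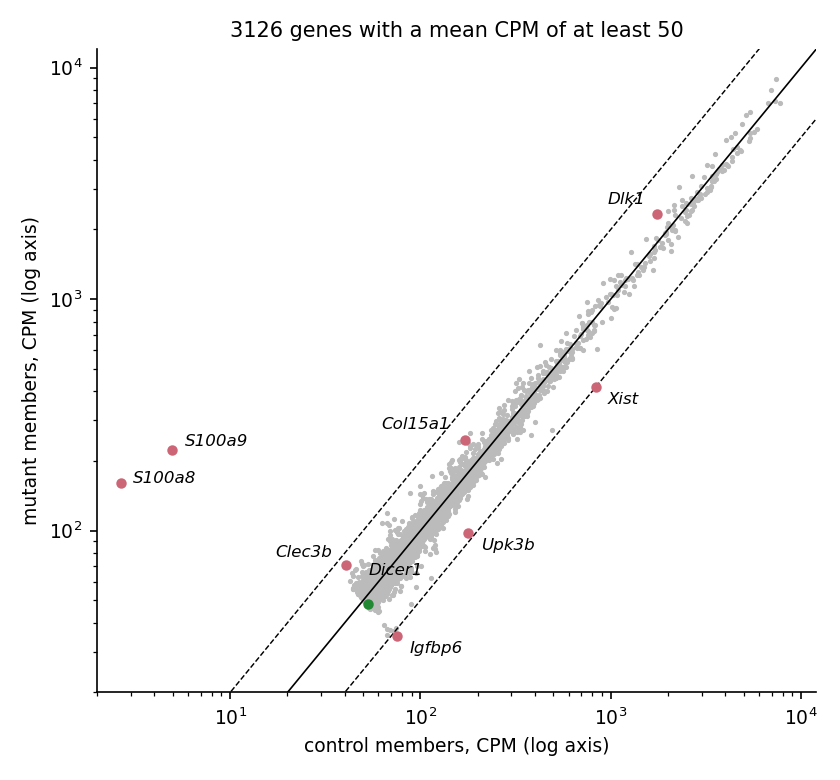
CPM in control (x) and mutant (y) members, both on log axes, for 3126 genes with a mean of at least 50 CPM; the solid line marks equal levels and the dashed lines 2-fold differences. S100a8 and S100a9, which come from 1 cell, lie above the upper dashed line, Igfbp6 and Xist on or below the lower one, and Clec3b, Col15a1, Upk3b, Dlk1 and Dicer1 between them.

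Of the genes that chose the members, Dlk1 gave 0.41 (0.37 to 0.45), Smoc2 0.16 (0.03 to 0.28) and Spon2 0.15 (0.06 to 0.24) in mutant over control members, and of the markers outside the rule Aldh1a2 gave 0.06 (-0.07 to 0.18), Nrk 0.10 (0.04 to 0.15) and Col14a1 0.17 (0.11 to 0.22). After thinning, UMIs of Aldh1a2 were found in 24.9% and 23.6% of members, of Nrk in 75.8% and 76.5% and of Col14a1 in 65.6% and 71.4%.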

How the data were processed

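Single-cell RNA was measured in 2 libraries, 1 control and 1 mutant, each from pooled leaflets. The deposited values are raw UMI counts per gene and barcode, which the authors obtained by running Cell Ranger (5.0.0, per the file headers) on mm10, per the submitters' processing notes; counting options and the barcode filter are not given in the sources used here. Cells with at least 500 genes, 1000 UMIs and under 20% of mitochondrial UMIs were kept. UMIs were summed per library and group and scaled to counts per 1000000 (CPM), and log2 ratios had 0.5 counts added to each sum. Intervals are exact Poisson (ratios) and Clopper-Pearson (shares) 95% intervals and cover counting error only. Doublets were called with Scrublet in scanpy 1.11.5 (3.83% and 3.33% of cells), gave 22 and 5 members, and were left in; removing them was an alternative. Scaling alternatives used edgeR 4.0.16 and DESeq2 1.42.0 factors.

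Members and gene lists were chosen with earlier results of these data known. Genes named for the genotypes had the 12 highest and 12 lowest log2 ratios among those with a mean of at least 50 CPM and, in members, at least the CPM of the gene's highest cell group divided by 5, a guard for free RNA that 7 genes failed. Over the other fibroblasts the 15 highest and 10 lowest were named, over B-, D- and E-led cells 5 each way, and list genes besides; Rtl1, Xist, Hpgd, Celf4, the cardiac and granulocyte genes and the genes of epicardial-marker, mural-marker and next-sum members were named after their values were seen. The counting was tested on simulated counts. Endothelial-, cardiomyocyte- and macrophage-rule cells were set by marker sums of those types. Of 32285 gene identifiers, 32158 were found in GENCODE M21, on GRCm38, the build of mm10, which gave positions and the UTR.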

Additional observations from a re-analysis of the deposited data

How the results depend on the processing

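With 1 library per genotype, spread between embryos is unknown and depth limits genes under about 50 CPM. No paired analysis was possible because each genotype has 1 library, and no replicate could be left out for the same reason. The 71 higher and 106 lower genes over the other fibroblasts stayed within 1.5 times under every alternative run. Dicer1 ranged from -0.22 to 0.06 in members, above 0 as a mean over cells. Where values moved, the cause was not tested except that stricter CPM limits and fewer members leave fewer genes or cells. The 2 genes at least 2-fold above control in mutant members became 6 when cells were thinned to 2000 UMIs, 8 in female-type cells, 6 with male-type mutant over female-type control, 5 as a mean over cells, 10 at 20 CPM, 254 with no CPM limit, and 0 at 200 CPM, without epicardial-marker members, without epicardial- and mural-marker members, or without the cells rich in granulocyte or cardiac RNA. The 2 lower genes became 4 when thinned, 4 with a leading sum of at least 6, 4 as a mean over cells, 7 at 20 CPM, 330 with no limit, 0 without both marker sets, and 1 in female-type cells, with DESeq2 factors, with equal weights for members led by Dlk1, Smoc2 or Spon2, with equal weights for the marker sets, at 200 CPM, or without epicardial-marker members. The control share of 8.16% became 6.89% when thinned, 7.19% with a sum of at least 6, 6.35% with a sum at least 2 times the next, 7.21% without epicardial-marker members and 6.24% without both marker sets. The mutant share of 9.73% became 7.65% with a sum at least 2 times the next, 8.26% in female-type cells and 7.20% without both sets. Igfbp6 reversed from -1.09 to 0.27 without epicardial-marker members and to 0.28 without both sets, and Matn4 to 0.21 when thinned. Without epicardial-marker members Upk3b gave 1.17, Ecrg4 0.18 and Klf4 0.42, each below 0 in all members, and with equal weights for the sets Rspo1 gave 0.08 and Msln 0.34, also from below 0. Upk3b is one of the genes that set the epicardial cut, so each member left can hold at most 2 UMIs of those genes. Only 11 control and 8 mutant members held 1 to 2, so the 1.17 rests on few UMIs and was limited by the cut. Of the other gene ratios 1608 stayed within their counting interval and 249 left it, some with a change of sign, and 38 list medians moved by 0.1 or more while 307 moved less. Alternatives without a marker set, at 200 CPM, with equal weights for the sets and without the foreign-RNA cells were chosen after seeing the data.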

Other observations

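Further gene groups of the members, counted as in the comparison with the other leaflet fibroblasts, were divided. Over all 8849 genes 5.04% were higher and 5.76% lower, and without epicardial-marker members 3.8% and 6.7%. Of 14 genes of the SPARC and matricellular families outside the rule, 7 were lower and 2 higher, and without epicardial-marker members 9 were lower and 1 higher. Over D-led cells alone, 3 of 14 were higher and 2 lower. Ccn2 (17.3 and 15.7 CPM, log2 ratios -3.02 and -2.96), Thbs1 (67.7 and 71.8 CPM, -1.71 and -2.16) and Ccn1 (94.3 and 96.2 CPM, -1.08 and -1.16), matrix-bound signals of stretched or injured tissue, were lower, and Sparcl1 (411 and 508 CPM, 1.34 and 1.06), a SPARC relative, and Thbs2 (0.62 and 0.65) were higher. Of 24 matrix proteases and inhibitors 3 were higher and 3 lower, with Htra3 (66.7 and 107 CPM, 1.23 and 2.08) and Adam12 (26.9 and 34.9 CPM, 1.66 and 0.99) higher and the related protease gene Htra1 (36.4 and 38.4 CPM, -2.84 and -1.96) lower. Of 18 fatty acid genes 4 were higher, among them Cebpb (143 and 128 CPM, 1.83 and 1.03), a transcription factor gene of fat formation, and 2 lower, among them Apoe (494 and 271 CPM, -1.60 and -1.61), the lipid carrier. Of 23 growth factor genes 5 were higher and 4 lower, and without epicardial-marker members 4 were higher and 7 lower of 22. The fibroblast growth factor receptor gene Fgfr2 (14.2 and 9.83 CPM, -2.14 and -2.31) was lower and Igf1 measured 68.8 and 58.2 CPM (-1.89 and -1.19).

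Of 16 S phase genes 0 were higher and 0 lower, and of 23 immediate early genes, which respond to cell dissociation, 1 was higher, Klf4 (94.5 and 65.9 CPM, 1.54 and 0.82), and 1 lower, Ier3 (23.9 and 16.9 CPM, -1.36 and -2.20). These counts stand beside 5.04% higher and 5.76% lower of all 8849 genes. Without epicardial-marker members 0 immediate early genes were higher and 3 lower, Ier3, Atf3 and Hspb1. Cells with a UMI of Mki67 or Top2a had been left out by the rule.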
